A study of Mus musculus with 4 samples.

Results

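The miR-7 family was measured in small RNA libraries of the mouse retina, taken whole at E18.5, late in embryonic life. The family comprises 5 mature arms: mmu-miR-7a-5p and mmu-miR-7b-5p, which are the guide arms, and mmu-miR-7a-1-3p, mmu-miR-7a-2-3p and mmu-miR-7b-3p, which are their partners. The species prefix is left out below. The members were taken as every listed arm of miR-7a and miR-7b, 5 of 1326 listed microRNAs (miRNAs). The family was chosen by a measured value, the higher level of miR-7b-5p in Ptf1a-/- than in Ptf1a+/- retina in these same libraries. The genotype comparison is therefore given as a description, with no p-value, and the choice supports nothing about the direction. Of the 4 libraries, 2 came from Ptf1a+/- embryos, which keep 1 functional copy of Ptf1a, and 2 from Ptf1a-/- embryos, which lack both. The labels name no other allele or treatment, and do not say how the Ptf1a allele was made or how many animals were pooled. Nor do they tie the libraries to separate animals, so the spread between replicates may be technical. Ptf1a is a transcription factor without which retinal progenitors fail to make amacrine and horizontal cells. Only RNA of 18 to 30 nt was sequenced, so Ptf1a mRNA was not measured and the genotypes could not be checked against it.

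miRNAs guide Argonaute proteins to messenger RNAs through the seed, bases 2 to 8 from the 5′ end, and lower the output of the transcripts they pair with. miR-7 is an ancient miRNA of neurons and endocrine cells, and Pax6, a transcription factor of retinal progenitors and amacrine cells, is among its known targets. Its level in the nervous system is set in part after processing, by the circular RNA Cdr1as, which binds miR-7 at many sites, and by the long noncoding RNA Cyrano, which triggers its decay. In the mouse, miR-7a-5p is cut from both the Mir7-1 and the Mir7-2 hairpin, while miR-7b-5p comes from Mir7b.

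The mature sequences from RefSeq (GRCm38.p6) are shown because counting must tell these paralogs apart by few bases; all 5 arms matched by name. They run 5′ to 3′, with the seed in capitals.
miR-7a-5p: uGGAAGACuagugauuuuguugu
miR-7b-5p: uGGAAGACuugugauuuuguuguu
miR-7a-1-3p: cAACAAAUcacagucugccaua
miR-7a-2-3p: cAACAAGUcccagucugccaca
miR-7b-3p: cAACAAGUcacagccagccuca
Both guide arms have the same seed. Over their common length they differ by the single substitution A10U, numbered from 1 at the 5′ terminus, outside the seed. No other of the 1679 RefSeq mature miRNAs searched has that seed, and neither has the most frequent sequence of any other listed miRNA. The 3p arms are easier to tell apart. miR-7a-1-3p and miR-7a-2-3p differ at 3 positions (A7G, A10C and U21C), and the first of these lies in the seed. miR-7a-2-3p and miR-7b-3p have the same seed and differ at 4 positions further on (C10A, U14C, U16A and A20U).

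The hairpins are shown because the 3p arm is the mature product that tells Mir7-1 from Mir7-2. Capitals mark the 5p and then the 3p mature arm.
Mir7-1: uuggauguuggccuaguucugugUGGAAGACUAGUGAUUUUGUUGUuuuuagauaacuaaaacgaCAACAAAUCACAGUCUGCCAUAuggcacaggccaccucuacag
Mir7-2: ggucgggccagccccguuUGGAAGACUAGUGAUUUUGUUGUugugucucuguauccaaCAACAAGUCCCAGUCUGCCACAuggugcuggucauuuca
Mir7b: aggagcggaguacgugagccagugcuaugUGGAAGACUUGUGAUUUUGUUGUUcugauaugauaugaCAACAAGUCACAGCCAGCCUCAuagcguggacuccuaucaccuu
Mir7-1 lies on the minus strand of chromosome 13 (chr13:58392779-58392886, GRCm38), in an intron of Hnrnpk, the gene of an RNA-binding protein transcribed from the same strand. Mir7-2 lies on the plus strand of chromosome 7 (chr7:78888277-78888373), inside no other annotated gene and 7481 bp from Aen. Mir7b lies on the plus strand of chromosome 17 (chr17:56242988-56243098), also inside no other gene, 183 bp from the long noncoding RNA gene AC026385.1 and 13712 bp from Fem1a. No other miRNA gene annotated in GENCODE M21 lies within 50 kb of any of them. In that annotation, none of the 3 is thus part of a miRNA cluster of that span.

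The most frequent read of each arm was the same in all 4 libraries. For miR-7b-5p and the 3p arms it equalled the reference sequence. For miR-7a-5p it was 24 nt long, the 23 nt reference plus a 3′ U, which both of its hairpins encode at that place. The prevailing reads of the guide arms thus have equal length and differ at position 10 alone. Counts of both guide arms were whole numbers in every library. In Ptf1a+/- replicate 2 miR-7a-1-3p had 100.5 counts and miR-7a-2-3p 107.5, so at least 1 read was divided between miRNAs there. How a read with a sequencing error at position 10 was assigned was not given in the sources used here.

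Libraries held between 3647145 and 4385834 listed counts. Levels are CPM (counts scaled to a common library total) scaled by TMM, a trimmed mean of ratios that sets most miRNAs equal between libraries; its factors lay between 1.06 and 1.07 in 3 libraries and at 0.829 in Ptf1a-/- replicate 2. Over miRNAs of 20 to 2000 summed counts, the gap between the Ptf1a+/- libraries was near read sampling (chi-square per degree of freedom 1.11), against 8.68 for the Ptf1a-/- pair. Both guide arms have more counts than that. With no upper limit on counts the values were 1.85 and 120, so the Ptf1a+/- libraries did differ beyond sampling. The retinal and neuronal miRNAs miR-9-5p, miR-183-5p, miR-182-5p, miR-96-5p and miR-124-3p together held 36.1 and 36.1% of listed counts in Ptf1a+/- and 38.5 and 42.9% in Ptf1a-/- libraries. The erythrocyte miRNA miR-451a had at most 1 count in a library, and miR-144-3p, also of the blood list, at most 2. The third blood miRNA, miR-486a-5p, had 282.5 and 328.5 counts in Ptf1a+/- and 245.5 and 311 in Ptf1a-/- libraries.

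miR-7a-5p was the most abundant arm. Its counts were 28790 (replicate 1) and 32184 (replicate 2) for Ptf1a+/-, then 36274 (replicate 1) and 36658 (replicate 2) for Ptf1a-/-. These correspond to 7434, 6845, 9361 and 11284 CPM. Each Ptf1a-/- library exceeded each Ptf1a+/- library. The group means were 7139 ± 417 and 10322 ± 1360 CPM (SD, n = 2 each). The log2 fold change was 0.53 ± 0.14 (SE derived from the F statistic of the edgeR fit over all 584 miRNAs). This arm did not reach the threshold used for calls over all miRNAs, an adjusted p of 0.05. Among the 584, it ranked 19th and 21st by level in the Ptf1a+/- libraries and 15th in each Ptf1a-/- library.

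miR-7b-5p, the arm that led to the choice of the family, had 3422 and 3924 counts in Ptf1a+/- and 4914 and 5024 in Ptf1a-/- retina. In the same order its levels were 884, 835, 1268 and 1547 CPM. The genotypes did not overlap, and the higher Ptf1a-/- library was replicate 2, as for miR-7a-5p. Means were 859 ± 34.7 and 1407 ± 197 CPM (SD, n = 2 each), and the log2 fold change was 0.71 ± 0.13 (SE). It ranked 83rd and 87th by level in Ptf1a+/- and 69th and 66th in Ptf1a-/- libraries. Ordered by fold change from the most increased, miR-7b-5p was number 56 and miR-7a-5p number 90 of the 584 miRNAs, whose median log2 fold change was -0.003. Without Ptf1a-/- replicate 2, the library that stood apart in scaling, the log2 fold changes of the guide arms were 0.58 for miR-7b-5p and 0.41 for miR-7a-5p.

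**Figure D1:**
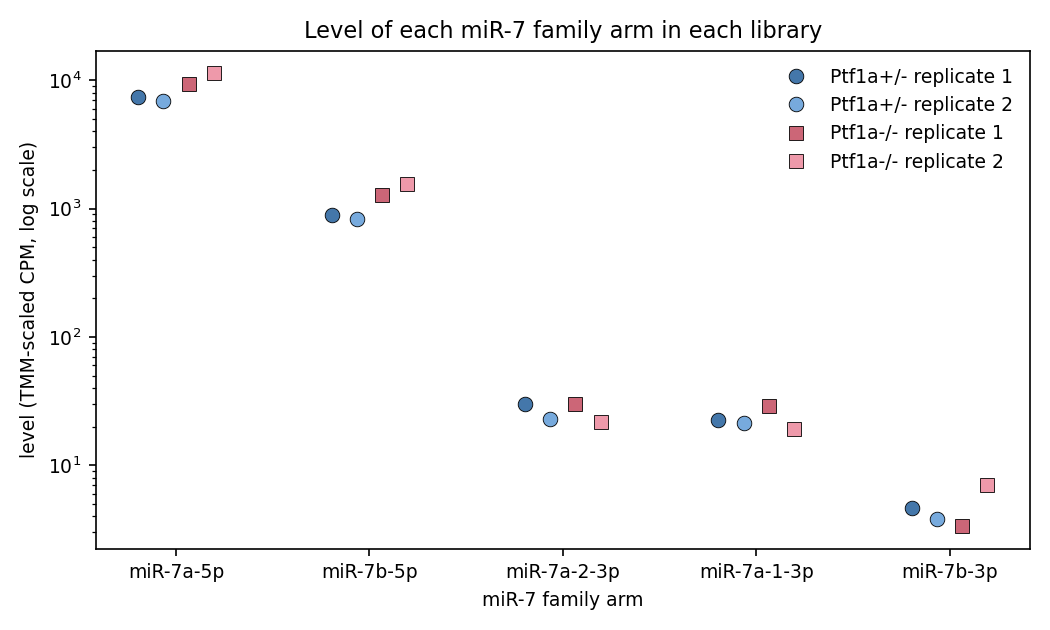
TMM-scaled CPM (log axis) of the 5 miR-7 family arms in each of the 4 libraries, circles for Ptf1a+/- and squares for Ptf1a-/-. The squares lie above the circles for both 5p arms, while the genotypes overlap for the 3p arms, which are far less abundant.

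The 3p arms were scarce and showed no such separation. miR-7a-2-3p stood at 30.0 and 23.0 CPM in the Ptf1a+/- libraries and at 29.9 and 21.5 CPM in the Ptf1a-/- libraries (116, 107.5, 116 and 70 counts). Its log2 fold change was -0.02 ± 0.25 (SE). miR-7a-1-3p stood at 22.7 and 21.3 CPM in Ptf1a+/- and 29.2 and 19.1 CPM in Ptf1a-/- libraries (88, 100.5, 113 and 62 counts). Its log2 fold change was 0.15 ± 0.26. For both arms the Ptf1a-/- libraries lay on opposite sides of the Ptf1a+/- mean, with replicate 2 the lowest of all 4 libraries. miR-7b-3p was near the limit of the data, with 18 counts in each Ptf1a+/- library and 13 and 23 in Ptf1a-/- (4.65, 3.83, 3.35 and 7.08 CPM; log2 fold change 0.27 ± 0.43). This SE is large beside the log2 fold change of its 5p partner, 0.71. Whether a difference of that size could be detected in this arm was not tested.

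Of the 5 arms, 1, miR-7b-5p, passed as higher and 0 passed as lower, beside 6.16% of the 584 tested miRNAs called higher and 3.60% called lower (edgeR, Benjamini-Hochberg). All 5 arms met the minimum for testing, 10 counts in at least 2 libraries. The genotypes stood apart for 2 of the 5 arms, with Ptf1a-/- above in both libraries, and 0 arms stood apart below, beside 26.7 and 31.5% of all tested miRNAs. Nothing about the family is read from these counts, since this comparison chose it. The median log2 fold change of the 5 arms was 0.27. The call of miR-7b-5p was lost under 7 of the 13 alternative fits. It was lost when either Ptf1a+/- library was left out, without the filter on low counts, and with the Ptf1a+/- pair summed into 1 library. The same held with library size as the only scaling and with the replicate number as a block. The last was limma on the deposited CPM, which changes the test as well as the scaling.

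**Figure D2:**
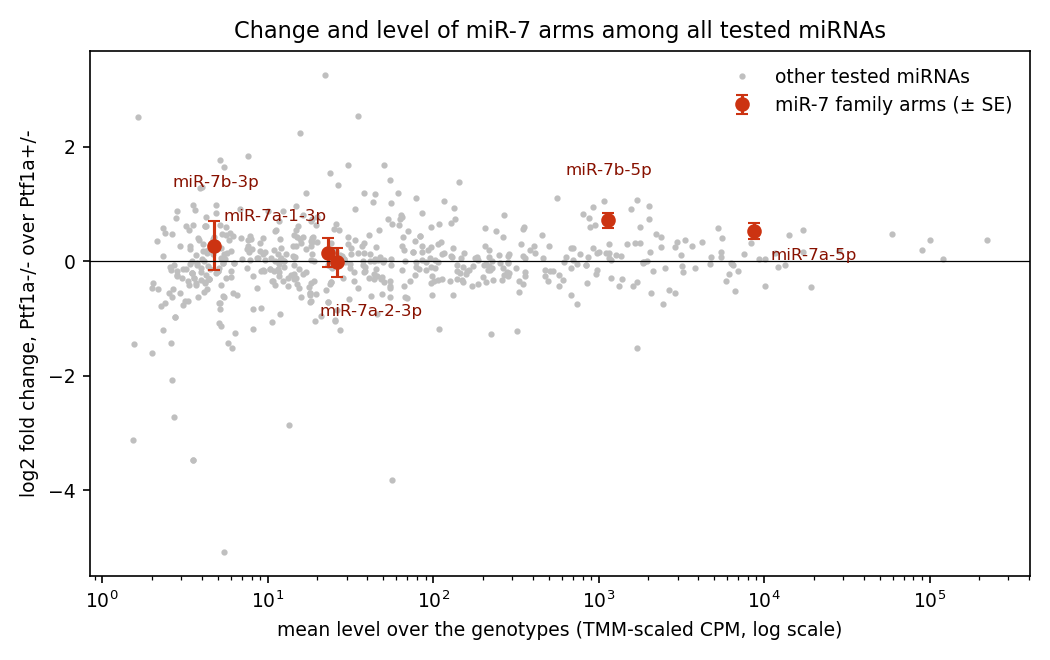
Log2 fold change of Ptf1a-/- over Ptf1a+/- against the mean level (TMM-scaled CPM, log axis) for the 584 tested miRNAs (grey), with the miR-7 arms in red and bars for SE. Both 5p arms lie above 0 among the abundant miRNAs, while the SE bars of the 3p arms reach 0.

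The size of the difference in the guide arms depended on the scaling, its sign did not. On the CPM that the authors deposited, miR-7b-5p was listed at 778 and 749 in Ptf1a+/- and at 1039 and 925 in Ptf1a-/- libraries. On that scale miR-7a-5p was listed at 6548 and 6142 against 7666 and 6750, so its Ptf1a-/- replicate 2 lay just above the Ptf1a+/- libraries. The ratio of mean levels, Ptf1a-/- over Ptf1a+/-, was 1.64 for miR-7b-5p with TMM, 1.43 with library size alone and 1.29 on the deposited CPM. For miR-7a-5p the same ratios were 1.45, 1.27 and 1.14. The median log2 fold change of all tested miRNAs was -0.18 with library size alone and -0.33 with limma on log2 of the deposited CPM plus 1. Relative to that median, miR-7b-5p stood at 0.71, 0.70 and 0.69 under the 3 scalings, and miR-7a-5p at 0.53, 0.52 and 0.51. A scaling shifts all miRNAs of a library alike, so subtracting the median largely removes it by construction. The near-equal values are therefore no separate check of the difference. Of the total that the deposited CPM were divided by, 17.0 and 16.3% was not listed as miRNA counts in Ptf1a+/- libraries, and 22.7 and 27.9% in Ptf1a-/- libraries. This share moved with genotype, and its part in the result was not tested. Together the guide arms made up 0.883 and 0.823% of listed counts in Ptf1a+/- and 1.13 and 1.06% in Ptf1a-/- libraries. In whole retina, more miR-7 per cell and more of the cells that hold it cannot be told apart.

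**Figure D3:**
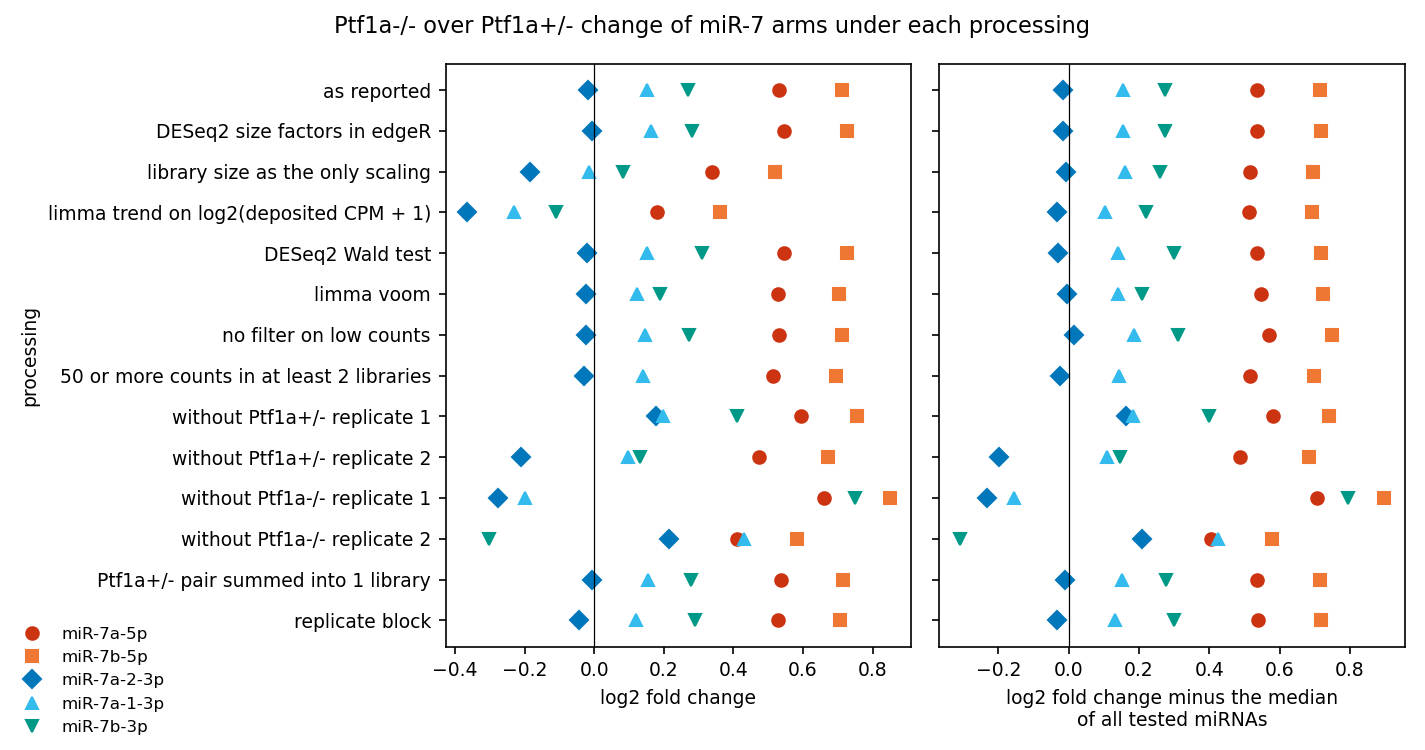
Log2 fold change (Ptf1a-/- over Ptf1a+/-) of each arm as reported and under each alternative, as fitted (left) and after subtraction of the median of all tested miRNAs (right). Both 5p arms stay to the right of 0 in every row, whereas each 3p arm crosses 0 in at least 1 row of the left panel. Subtracting the median largely removes a change of scaling by construction.

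A ratio of arms within a library does not depend on the scaling. miR-7b-5p made up 10.6% of the summed 5p counts in Ptf1a+/- replicate 1 (95% Clopper-Pearson interval 10.3 to 11.0%) and 10.9% in replicate 2 (10.5 to 11.2%). In Ptf1a-/- it made up 11.9% in replicate 1 (11.6 to 12.2%) and 12.1% in replicate 2 (11.7 to 12.4%). The intervals of the genotypes did not overlap, and those within a genotype did. miR-7b-5p was thus a larger part of the family in both Ptf1a-/- libraries, by about 1 percentage point, with miR-7a-5p the predominant guide in all 4. The intervals cover counting error only and include no spread between animals. This ratio contains the value that chose the family and is likewise a description.

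The origin of miR-7a-5p, which Mir7-1 and Mir7-2 share, can be described only through the 3p arms. miR-7a-1-3p made up 43.1% of the miR-7a 3p counts in Ptf1a+/- replicate 1 (36.2 to 50.2%) and 48.3% in replicate 2 (41.1 to 55.1%). In Ptf1a-/- it made up 49.3% (42.7 to 56.0%) and 47.0% (38.2 to 55.8%) in replicates 1 and 2. Products of both hairpins were thus present in every library. miR-7a-2-3p was the more abundant in all 4, while each interval reached 50%, so the excess was within counting error in each single library. The ordering of the other arms, miR-7a-5p above miR-7b-5p, then the miR-7a 3p arms, then miR-7b-3p, held in all 4 libraries. Ligation and PCR favour some sequences, so such an order between arms is less certain than a comparison of 1 arm between libraries.

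Retention of the 5p strand was strong at both paralogs. 3p reads were 0.671% of miR-7a counts and 0.488% of miR-7b counts in the pooled Ptf1a+/- libraries. In 109 other miRNAs with both arms listed and at least 100 counts of the minor arm over the 4 libraries, the minor arm had a median of 12.7%. Of these 109, 12 had a lower minor share than miR-7a, and 10 a lower one than miR-7b. The minimum for the minor arm leaves out miRNAs whose partner strand is rarer still. miR-7b does not meet it either, with 13 to 23 counts of its 3p arm per library, so its low place is partly built in.

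The 3p share of miR-7a was 0.704 and 0.642% for Ptf1a+/-, and for Ptf1a-/- it was 0.627% (replicate 1) and 0.359% (replicate 2). The interval of Ptf1a-/- replicate 2, 0.300 to 0.425%, lay below those of the other 3 libraries, the lowest bound of which was 0.549%. Relative to the Ptf1a+/- mean, the log2 ratio of 3p to 5p was -0.91 in Ptf1a-/- replicate 2 and -0.10 in replicate 1. Minor arms were lower in that library in general. The median change of the 109 pairs was -0.22 there and 0.03 in Ptf1a-/- replicate 1, and 6 pairs had a larger decrease than miR-7a in replicate 2. The lower 3p share of miR-7a was thus seen in 1 Ptf1a-/- library and not in the other. For miR-7b the 3p share was 0.523, 0.457, 0.264 and 0.456% in the same library order. All of its intervals overlapped, the lowest share resting on 13 counts. Relative to the Ptf1a+/- mean, the log2 ratio of miR-7b was -0.89 in Ptf1a-/- replicate 1 and -0.10 in replicate 2. In replicate 1, 4 of the 109 pairs had a larger decrease than miR-7b. Its 3p arm, with 13 counts there, is below the count minimum of those pairs, so its place among them is uncertain. Of all 3p counts in the family, miR-7b-3p made up 8.11, 7.96, 5.37 and 14.8%. The interval of this share held the 5p share of miR-7b in both Ptf1a+/- libraries and in Ptf1a-/- replicate 2. In Ptf1a-/- replicate 1 it ended at 9.01%, below the 5p share of 11.9%.

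**Figure D4:**
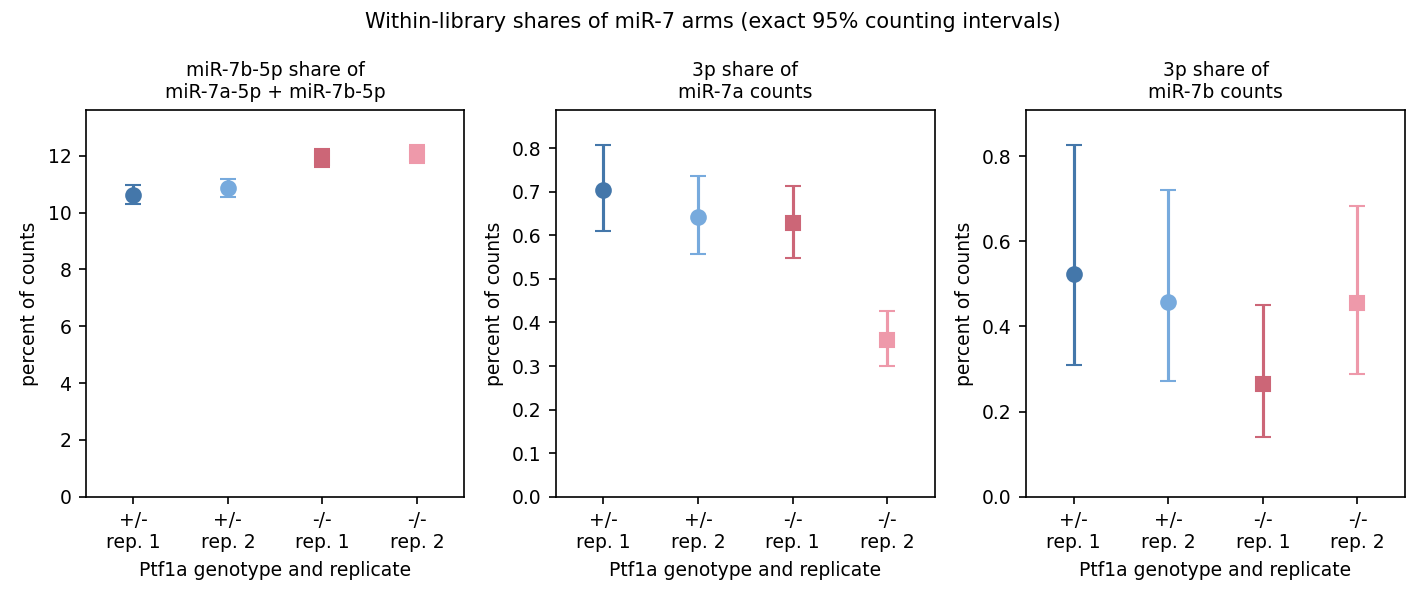
Within-library percentages of counts for each library (circles Ptf1a+/-, squares Ptf1a-/-) with exact 95% counting intervals. The miR-7b-5p share (left) is near 10.7% in Ptf1a+/- and near 12% in Ptf1a-/-, the miR-7a 3p share (middle) is lowest in Ptf1a-/- replicate 2, and the miR-7b 3p share (right) has overlapping intervals.

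miR-671 was followed as the other miRNA of the miR-7 and Cdr1as circuit, since its 5p arm directs cleavage of Cdr1as. miR-671-5p stood at 40.8 and 41.3 CPM in Ptf1a+/- and at 37.9 and 34.8 CPM in Ptf1a-/- libraries. Both Ptf1a-/- libraries were slightly lower, and the log2 fold change was -0.17 ± 0.17 (SE). miR-671-3p stood at 109 and 106 CPM in Ptf1a+/-, and at 78.2 and 120 CPM in Ptf1a-/- libraries, which lay on either side. Of these 2 arms, 0 passed in either direction, beside 6.16% called higher and 3.60% called lower over all tested miRNAs. The median log2 fold change of both arms was -0.15. Cdr1as and Cyrano are longer than the RNA sequenced and were not measured.

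Among the retinal and neuroendocrine miRNAs set beside the family, 0 of 6 tested passed in either direction, with a median log2 fold change of 0.38. Over all tested miRNAs 6.16% were called higher and 3.60% lower, so the number of calls in lists this short says little. miR-375-3p, which shares its endocrine expression with miR-7, stood at 13.9 and 16.0 CPM in Ptf1a+/- and at 18.8 and 58.2 CPM in Ptf1a-/- libraries. The higher value lay almost wholly in Ptf1a-/- replicate 2. The other members did not share 1 pattern. miR-9-5p had 193521, 193661, 218533 and 284714 CPM in the usual order, and miR-183-5p and miR-182-5p were likewise highest in Ptf1a-/- replicate 2. miR-96-5p was lower in both Ptf1a-/- libraries (6687, 6545, 4615 and 5832 CPM), and miR-124-3p was lowest in Ptf1a-/- replicate 2 (832 CPM). Markers of other tissue were also followed. Their summed level was 3689 and 3728 CPM in Ptf1a+/- against 3203 and 3565 in Ptf1a-/- for 3 pigment epithelium miRNAs (1 lower, miR-204-3p). It was 305 and 292 against 227 and 300.4 for 3 lens and surface epithelium miRNAs (1 lower, miR-200b-3p). That call rested on 25 and 31 counts in Ptf1a+/- and 1 and 3 in Ptf1a-/- libraries. The other members of that list differed in sign, with log2 fold changes of 0.30 for miR-203-3p and -0.44 for miR-184-3p. For 3 vascular and mural miRNAs the sums were 580 and 598 against 337 and 566, and 0 of 2 tested passed. Blood miRNAs, almost wholly miR-486a-5p, summed to 73.5 and 70.5 against 63.6 and 96.0 (0 of 1 tested passed). The 3 striated muscle miRNAs summed to 48.5 and 51.1 against 65.0 and 70.3 (0 passed). The part of other tissue in the miR-7 values was not tested.

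Likeness of profile was measured as the Euclidean distance between log2 levels over the 4 libraries, each centred on its own mean, among 415 other tested miRNAs with a mean of at least 10 CPM. Nearest to miR-7b-5p were miR-433-3p (distance 0.104), miR-409-3p (0.106), miR-127-3p (0.123), miR-485-5p (0.161) and miR-541-5p (0.164). Of these, miR-433-3p, miR-409-3p, miR-127-3p and miR-541-5p map to chromosome 12 in RefSeq. The reference used gave no position for miR-485-5p. miR-433-3p, the nearest, stood at 1490 and 1536 CPM in Ptf1a+/- and 2331 and 2718 CPM in Ptf1a-/- libraries. The paralog miR-7a-5p was number 8 by the same measure (0.181). Nearest to miR-7a-5p were miR-666-5p (0.0402), let-7f-5p (0.0703), let-7g-5p (0.100), miR-541-5p (0.112) and miR-485-5p (0.131), and miR-7b-5p was number 13. Here too miR-666-5p and miR-541-5p map to chromosome 12, while let-7f-5p and let-7g-5p are listed on other chromosomes. let-7f-5p stood at 14137, 13919, 18618 and 22430 CPM, with the same order of libraries as miR-7b-5p. With 4 libraries in 2 genotypes, such a profile holds little beyond the size of the genotype difference and the gap between the Ptf1a-/- libraries.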

How the data were processed

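Per the labels' protocols, gel-purified RNA of 18 to 30 nt from total retina RNA went into a New England Biolabs small RNA library kit. The submitters' processing notes name bcl2fastq (2.20.0.422). Aligner, counter and genome build were not given in the sources used here. Estimated counts per mature miRNA were deposited, some of them fractions, and were rounded for the count tests although whole counts had been planned for. The CPM deposited beside them are the same counts over 1 total per library. The deposited table of most frequent sequences is written against miRBase22, per the file headers.

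Groups came from the sample titles. Ptf1a-/- was set against Ptf1a+/- with edgeR 4.0.16 in R 4.3.3 (quasi-likelihood F test, TMM, genotype only, Benjamini-Hochberg, calls under 0.05). The SE of its log2 fold change is the absolute change over the square root of F, with the spread of both genotypes modelled together. The filter of 10 counts in 2 or more libraries kept 584 of 1326 miRNAs. The script was tested on simulated data with the same spread in all libraries. In these data the Ptf1a-/- pair differed more than the Ptf1a+/- pair, so that test does not bear on how reliable the calls are. Alternatives used DESeq2 1.42.0 and limma 3.58.1 (voom, and log2 of deposited CPM with a pseudocount of 1), other filters and scalings, and left-out libraries. Profile likeness used log2 CPM with a prior count of 2. Intervals for shares are exact (scipy 1.17.1, 95%) and cover counting error only, as no molecular identifiers are described. A count of 0 allowed up to 0.684 to 0.823 CPM by library (3 counts, library size alone). Sequences are RefSeq's and gene positions GENCODE M21's. Named miRNAs were the 5 arms, the miR-671, reference and marker lists, the 5 nearest profiles of each guide arm, and any miRNA with the same seed or within 50 kb. miR-3529, planned beside miR-671 as annotated at a miR-7 locus, has no values in the tables used. The same holds for miR-375-5p and miR-205-5p. The members and lists were chosen with earlier results of these data known.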

Additional observations from a re-analysis of the deposited data

How the results depend on the processing

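The log2 fold changes of miR-7a-5p and miR-7b-5p were above 0 under all 13 alternatives, from 0.18 to 0.66 and from 0.36 to 0.85, whereas those of the 3p arms took both signs. Under all 3 scalings each Ptf1a-/- library exceeded each Ptf1a+/- library for both guide arms, so their sign was largely fixed beforehand. miR-7b-5p did not pass with library size as the only scaling (0.52), with limma on the deposited CPM, where test and scaling both change (0.36), with no filter on low counts (0.71, more miRNAs being tested), with the Ptf1a+/- pair summed into 1 library (0.72), or as part of 1 feature with miR-7a-5p (0.55). miR-7a-5p passed with DESeq2 (0.55), which thus called 2 arms. Arms called higher were 0 with library size, on the deposited CPM, without the filter and with the summed pair. Over all miRNAs, 36 were called higher and 21 lower, against 4 and 12 with library size, 1 and 27 on the deposited CPM, 12 and 9 without the filter, and 0 and 1 with the summed pair. With the replicate number as a block, 5 were higher and 7 lower, 0 arms passed, and miR-7b-5p stood at 0.71. The labels do not say that the numbers pair the samples, and the difference of replicate 1 from 2 correlated by 0.03 between the genotypes over 416 miRNAs.

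Leaving out 1 library moved the calls from 0 to 142 higher and from 1 to 132 lower, and from 0 to 2 arms. They were few without a Ptf1a+/- library and many without a Ptf1a-/- library, when only the close Ptf1a+/- pair gives the spread. The log2 fold changes then ranged from 0.41 to 0.66 for miR-7a-5p and from 0.58 to 0.85 for miR-7b-5p. Below 0 were miR-7a-1-3p with library size (-0.016), on the deposited CPM (-0.23) and without Ptf1a-/- replicate 1 (-0.20), and miR-7b-3p on the deposited CPM (-0.11) and without Ptf1a-/- replicate 2 (-0.30). miR-7a-2-3p was above 0 without Ptf1a+/- replicate 1 (0.18) and without Ptf1a-/- replicate 2 (0.22). Over left-out libraries the ranges were -0.20 to 0.43 for miR-7a-1-3p, -0.28 to 0.22 for miR-7a-2-3p and -0.30 to 0.75 for miR-7b-3p. These 3p arms passed under none of the alternatives run, and with 62 to 116 counts per library for the miR-7a arms and 13 to 23 for miR-7b-3p, depth limits what can be said of them. miR-7b-3p was not tested at the minimum of 50 counts. Shares within a library differed on the deposited CPM by rounding only. Those CPM are the same counts over 1 total per library, so this is no check of the shares.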
